A study of Rattus norvegicus with 18 samples.

Results

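The response of sensory ganglia to total knee arthroplasty (TKA), the replacement of the knee joint by a prosthesis, was compared in 17 of the 18 rats sequenced. All were Sprague Dawley rats, and from each the left dorsal root ganglia (DRGs) of the third and the fourth lumbar levels were taken. The 6 naive rats had no procedure. The 6 sham rats had anesthesia, a skin incision, and sutures. The 6 TKA rats had anesthesia and the complete replacement of the left knee. The operated rats were sampled 24 h after surgery, each group held 3 rats labelled male and 3 labelled female, and ages were not given in the labels. TKA rats were chosen by a measured value, the level of *Acta1* (ENSRNOT00000024084), the actin of skeletal muscle. A rat was kept when *Acta1* was at or under 1000 CPM, that is, 1000 of every 1000000 counts in its library. TKA rats 1 and 3, labelled male, and 4, 5, and 6, labelled female, were kept. TKA rat 2, labelled male, was left out, so the labelled sexes were not balanced among the kept TKA rats. The 6 naive and 6 sham rats were pooled as 12 controls. The nearest values on either side of the limit were 638 CPM in TKA rat 3 and 5408 CPM in TKA rat 2. The measurement was the number of RNA-seq reads per Ensembl transcript, with total counts of 20230562 to 29343899 per rat.

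Sensory neurons that supply the limb have their somata in the DRGs, wrapped by satellite glia, with Schwann cells, vessels, connective tissue, and resident macrophages between them. When tissue or axons are injured, these neurons are known to switch on early-response transcription factors, then genes of axon growth and secreted signals. Non-neuronal cells of the ganglion respond to cytokines and to circulating glucocorticoids. Immune signalling is held in check by feedback inhibitors that the same signals induce.

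Libraries differed in more than the surgery. *Acta1* was 628 and 638 CPM of all counts in TKA rats 6 and 3, 133 or less in the other 3 kept TKA rats, and at most 395 in controls. Summed over 15 skeletal muscle markers, TKA rats 3 and 6 had 1347 and 1482 CPM against 51.3 to 720 in controls, and TKA rat 2 had 11532. These levels chose the rats, so muscle transcripts are described without a test, although they stayed in the fit. Summed over 12 neuronal markers, which include the neurofilament transcripts *Nefl*, *Nefm*, and *Nefh*, controls had 35512 to 47388 CPM and the kept TKA rats had 29840, 40411, 37687, 31382, and 22616 (rats 1, 3, 4, 5, and 6). TKA rat 2 had 18068. Summed over 17 markers of myelinating Schwann cells, TKA rat 6 had 57914 CPM, against 11689 to 19918 in the other kept TKA rats, 7548 to 19896 in controls, and 103916 in TKA rat 2. In bulk tissue, fewer cells of a type and less RNA per cell cannot be told apart. On 3 transcripts present only in male controls, rats labelled male had 3097 to 5025 counts, and 3472 were found in the library labelled female TKA rat 4. No other rat labelled female had more than 1. On 1 transcript present only in female controls TKA rat 4 had 0 counts, against at least 350 in every other rat labelled female.

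**Figure D1:**
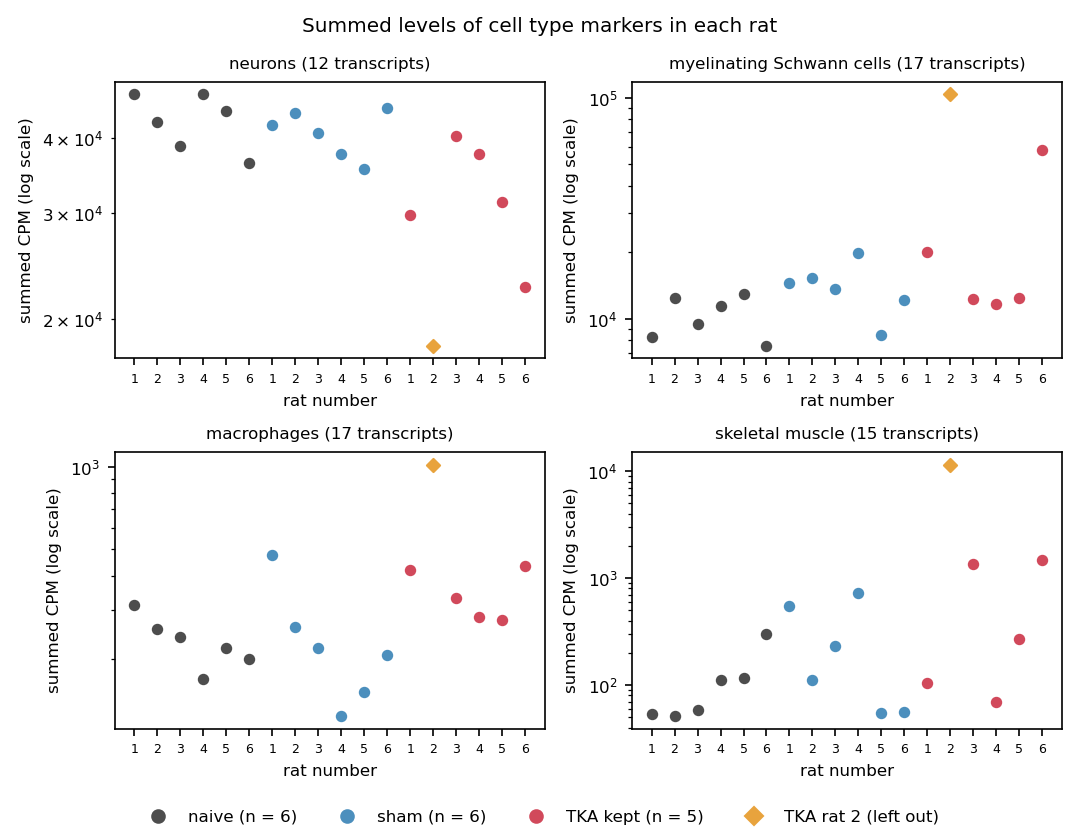
Summed CPM (log scale) of the markers of 4 cell types in each of the 18 rats, 1 point per rat, ordered by group and rat number. In neuronal markers, TKA rats 1, 5, and 6 (29840, 31382, and 22616) and the left-out TKA rat 2 (18068) lie under all controls. In Schwann cell markers, TKA rats 6 (57914) and 2 (103916) lie far over all controls. TKA rat 1 (19918) lies just over the highest control (19896).

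In the 5 kept TKA rats, 96 of 16350 tested transcripts were higher and 28 lower than in the 12 controls (edgeR quasi-likelihood test, adjusted p under 0.05 and at least 1.5-fold). That is 0.587% of tested transcripts called higher and 0.171% called lower. Of the 124, 52 rose and 9 fell by 2-fold or more. The median log2 fold-change was 1.04 among those called higher and -0.86 among those called lower, against 7.65e-05 over all transcripts tested. All 5 TKA rats lay above all 12 controls for 28 of the 96, and below all of them for 10 of the 28. Over all tested transcripts these shares were 0.336% above and 0.214% below. The smallest adjusted p belonged to *Zfp36*. The 96 include the muscle transcripts *Tnnc1* and *Tpm3*, of a troponin and a tropomyosin, which were 37.5 and 19.5 CPM in TKA rat 3 and 55.5 and 20.3 CPM in rat 6, but at most 5.76 and 1.62 CPM in the other 3 TKA rats. The 28 include *Myh8*, a muscle myosin, at 1.70 to 3.59 CPM in TKA rats and 4.02 to 11.4 CPM in controls. In the left-out TKA rat 2, which had the highest *Acta1*, *Myh8* was 0.364 CPM. Names came from ranked results of the same rats, so the members tested in each list are only such named transcripts, of which 91 of 3270 tested (2.78%) were called higher and 22 (0.673%) lower, with a median log2 fold-change of 0.14. Each list count stands against these shares as well as those over all transcripts. Without TKA rat 6 the count of all calls fell to 64, and without TKA rats 3 and 6 to 19.

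Early-response and bZIP transcription factors, which carry the first step of transcription after a stimulus, had 32 members on the list, of which 21 were named and tested. Of the 21, 9 rose and 0 fell, with a median log2 fold-change of 0.72 and all 21 fold-changes above 0. *Cebpd*, a C/EBP factor of the acute-phase response, had 77.0, 88.7, 68.8, 67.9, and 61.4 CPM in TKA rats 1, 3, 4, 5, and 6. Controls had 19.3, 29.02, and 49.1 CPM (lowest, median, and highest), so the groups did not overlap. Its log2 fold-change was 1.21 ± 0.17 (SE; adjusted p = 0.00116; exact permutation p = 0.000323, the smallest that 5 of 17 rats can give). The permutation p values use the same rats as the calls and are not separate support for them. *Egr1*, a zinc-finger factor induced within minutes of neuronal activity, had 79.5, 87.0, 54.1, 35.6, and 44.0 CPM. Controls ranged from 17.6 through a median of 27.2 to 37.2 CPM, and only TKA rat 5 lay inside that range. It rose by 1.16 ± 0.18 on the log2 scale (adjusted p = 0.00241).

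*Fos* and *Jun*, which pair to form the AP-1 factor, rose with more overlap. *Fos* was 30.1, 44.4, 30.1, 10.0, and 16.9 CPM in TKA rats 1, 3, 4, 5, and 6 and 6.63 to 17.9 CPM in controls (median 9.55), so TKA rats 5 and 6 lay within the controls. *Fos* rose by 1.34 ± 0.25 on the log2 scale (adjusted p = 0.00916). *Jun* was 282, 468, 386, 227, and 210 CPM against 147 to 280 CPM (median 179), and again rats 5 and 6 lay within the controls. *Jun* rose by 0.72 ± 0.17 (adjusted p = 0.0324), a call kept in 8 of 17 fits that left out a rat and lost in the robust fit and with all 6 TKA rats (adjusted p = 0.105 in the latter). *Fosl2*, an AP-1 partner, and *Maff*, a small Maf factor, did not overlap with controls, at 4.16 to 6.49 against 0.925 to 3.47 CPM and at 11.1 to 14.3 against 5.06 to 10.5 CPM. *Fosl2* (log2 fold-change 1.12) was called in 12 of the 17 fits that left out a rat, and *Maff* (0.78) in all 17. Both lost the call against naive rats alone, with neurofilament level as a covariate, and without TKA rats 3 and 6. *Myc*, a growth regulator, had 4.75 to 10.8 CPM against 1.48 to 3.79 CPM and a log2 fold-change of 1.53 ± 0.26 (adjusted p = 0.00424). *Egr2*, a factor of myelinating Schwann cells, and *Btg2*, an antiproliferative factor, also rose, by 1.001 ± 0.23 and 0.64 ± 0.16 on the log2 scale (adjusted p = 0.0278 and 0.0382). The call of *Btg2* was kept in 7 of the 17 fits, and that of *Egr2* in 15, all but those without TKA rat 1 or rat 6. *Egr2* also lost its call in the robust fit, against naive rats alone, and without TKA rats 3 and 6 (0.74, adjusted p = 0.344). With the level of neurofilament transcripts as a covariate it was 0.73 (adjusted p = 0.672). Among the 12 members not called, *Nr4a1*, *Nr4a2*, and *Cebpb* had log2 fold-changes of 0.49, 0.72, and 0.60 (adjusted p = 0.0606, 0.0582, and 0.0537). Without TKA rats 3 and 6, *Cebpd* and *Egr1* stayed past the thresholds and the list median was 0.45.

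Feedback inhibitors of cytokine, NF-kB, and MAPK signalling rose for 5 of 17 tested members and fell for 0, with a median log2 fold-change of 0.55. *Zfp36*, which encodes tristetraprolin, a protein that speeds the decay of cytokine mRNAs, had 53.9, 70.9, 47.9, 46.0, and 51.9 CPM in TKA rats 1, 3, 4, 5, and 6. In controls it had 13.7, 19.8, and 34.1 CPM (lowest, median, and highest), and each TKA rat lay above every control. *Zfp36* rose by 1.39 ± 0.16 on the log2 scale (adjusted p = 0.000346; exact permutation p = 0.000323). *Socs3*, the inhibitor of JAK-STAT signalling, had 17.1, 48.5, 30.1, 11.8, and 15.7 CPM against 3.76 to 11.5 CPM (median 5.50), with TKA rat 5 just above the highest control. The rise was 1.91 ± 0.28 on the log2 scale (adjusted p = 0.00116).

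*Nfkbia*, which encodes the NF-kB inhibitor IkBα, was 57.1, 42.9, 36.2, 50.3, and 39.2 CPM against 20.1 to 32.0 CPM (median 27.8), without overlap. It rose by 0.71 ± 0.12 on the log2 scale (adjusted p = 0.00339). *Dusp1* and *Dusp6*, phosphatases that switch off MAP kinases, rose by 0.61 ± 0.13 and 0.78 ± 0.15 (adjusted p = 0.0239 and 0.00992), each with 4 of 5 TKA rats above all controls. *Nfkbiz* and *Bcl3*, nuclear partners of NF-kB, had larger log2 fold-changes of 1.25 and 1.02 that were not called (adjusted p = 0.0775 and 0.0906). *Tnfaip3*, an NF-kB inhibitor of the same list, was -0.31 (adjusted p = 0.594). Without TKA rats 3 and 6, 3 members were called, namely *Zfp36*, *Socs3*, and *Nfkbia*.

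The 250 bases before the start of genes called higher were read in RefSeq promoters (GRCr8), which held 68 of the 91 symbols called higher and 16 of the 22 called lower. They are shown for 5 genes because CRE and NF-kB motifs are the best known response elements of activity and cytokine signals. The full CRE (TGACGTCA, the same on both strands) was present in 5 of the 68 promoters (7.35%) and in 466 of all 27457 promoters (1.70%). The 5 were *Vgf*, *Dusp1*, *Btg2*, *Maff*, and *Ch25h*. The NF-kB motif (GGG, any 3 bases, TTCC, or its reverse complement) was in 6 of 68 (8.82%) and in 4.53% of all promoters, and AP-1 (TGACTCA or TGAGTCA) in 2 of 68 (2.94%) and in 3.98%. None of the 16 promoters of genes called lower held any of the 3 motifs. The set of all promoters was not limited to genes tested or named here, so the shares were not matched and no enrichment was tested. A match describes letters and is not evidence of binding. Sequences run 5′ to 3′ towards the start, and capitals mark the motif, a CRE except in *Nfkbia*, where it is the NF-kB motif. *Vgf* is at chr12:25277021-25277270 on the minus strand, *Dusp1* at chr10:17184603-17184852 on the plus strand, *Btg2* at chr13:48087691-48087940 on the minus strand, *Maff* at chr7:112792537-112792786 on the plus strand, and *Nfkbia* at chr6:78597073-78597322 on the minus strand.
Vgf: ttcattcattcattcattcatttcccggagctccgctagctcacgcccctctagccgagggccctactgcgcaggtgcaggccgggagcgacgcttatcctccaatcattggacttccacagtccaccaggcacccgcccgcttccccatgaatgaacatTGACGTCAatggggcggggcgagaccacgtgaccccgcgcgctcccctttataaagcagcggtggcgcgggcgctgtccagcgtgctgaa
Dusp1: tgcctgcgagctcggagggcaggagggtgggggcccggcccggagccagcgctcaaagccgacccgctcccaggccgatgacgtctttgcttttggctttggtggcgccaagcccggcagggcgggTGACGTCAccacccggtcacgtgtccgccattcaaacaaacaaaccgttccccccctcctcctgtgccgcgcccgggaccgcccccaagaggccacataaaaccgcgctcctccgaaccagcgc
Btg2: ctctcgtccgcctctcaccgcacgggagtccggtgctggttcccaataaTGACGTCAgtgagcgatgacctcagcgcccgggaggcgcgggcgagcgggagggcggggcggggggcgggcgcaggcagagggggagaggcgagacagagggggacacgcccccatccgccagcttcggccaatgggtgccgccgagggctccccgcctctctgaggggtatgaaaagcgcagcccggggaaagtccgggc
Maff: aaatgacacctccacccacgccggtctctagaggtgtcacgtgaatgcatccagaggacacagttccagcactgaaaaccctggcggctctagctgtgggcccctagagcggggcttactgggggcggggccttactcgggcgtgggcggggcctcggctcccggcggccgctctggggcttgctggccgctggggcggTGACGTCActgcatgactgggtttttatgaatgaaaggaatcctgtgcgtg
Nfkbia: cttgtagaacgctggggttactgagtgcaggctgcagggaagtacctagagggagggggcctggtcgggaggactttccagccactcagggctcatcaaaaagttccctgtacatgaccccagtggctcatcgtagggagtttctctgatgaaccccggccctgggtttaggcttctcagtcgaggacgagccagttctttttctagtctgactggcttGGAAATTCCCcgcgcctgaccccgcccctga
The CRE began 90 bases before the start in *Vgf*, 124 in *Dusp1*, 201 in *Btg2*, and 51 in *Maff*, and the NF-kB motif 31 bases before it in *Nfkbia*.

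Of 18 tested genes known to respond to glucocorticoids, the adrenal stress steroids, 8 rose and 0 fell (median log2 fold-change 0.61). 3 of the 8, *Cebpd*, *Nfkbia*, and *Dusp1*, were also in the lists above. *Cdkn1a*, the cell cycle inhibitor p21, had 9.43, 12.8, 14.95, 10.4, and 8.75 CPM in TKA rats 1, 3, 4, 5, and 6 against 1.14 to 8.39 CPM in controls (median 4.06), without overlap. It rose by 1.40 ± 0.29 on the log2 scale (adjusted p = 0.016). *Mt2A*, a metal-binding metallothionein, had 6.22, 20.1, 15.96, 13.4, and 24.1 CPM against 2.71 to 11.8 CPM (median 5.599), so TKA rat 1 lay within the controls (1.35 ± 0.27, adjusted p = 0.0153). *Klf15*, a steroid-induced transcription factor, stood highest in TKA rat 6, at 98.7 CPM against 37.1 to 53.8 in the other 4 and 24.1 to 45.9 in controls. Its log2 fold-change of 0.83 ± 0.17 (adjusted p = 0.0176) was 0.52 without that rat. *Anxa1*, an anti-inflammatory annexin, and *Arrdc2*, an arrestin-like protein, rose by 0.61 ± 0.14 and 0.65 ± 0.16 (adjusted p = 0.0281 and 0.0382), each with 3 of 5 TKA rats above all controls, and were called in 10 and 7 of the 17 fits without 1 rat. The classical targets *Fkbp5*, *Per1*, and *Tsc22d3* had log2 fold-changes of 0.53, 0.54, and 0.32 and were not called (adjusted p = 0.0791, 0.078, and 0.0367, the last under 1.5-fold). Without TKA rats 3 and 6, *Cebpd* and *Nfkbia* were the 2 members called, and without rat 6 alone 3 were.

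Acute-phase and secreted response genes rose for 5 of 15 tested members and fell for 0, with a median log2 fold-change of 0.87. *Steap4*, a metalloreductase induced by inflammation, had 24.8, 22.9, 20.3, 19.6, and 75.0 CPM in TKA rats 1, 3, 4, 5, and 6. Controls had 7.06 to 13.3 CPM (median 10.6), so all 5 lay above them, with rat 6 far above the other 4. Its log2 fold-change was 1.60 ± 0.23 (adjusted p = 0.00116), and 1.03 without rat 6. *Lrg1*, a leucine-rich glycoprotein of inflamed vessels, showed the same order, with 41.3 CPM in rat 6, 18.5 to 22.2 in the other 4, and 6.62 to 15.9 in controls (1.03 ± 0.18, adjusted p = 0.00586). *Tnfaip6*, which remodels hyaluronan in inflamed tissue, rose by 2.37 ± 0.53 from a control median of 0.843 CPM (adjusted p = 0.0245). TKA rat 5, at 1.01 CPM, lay within the controls, of which the highest had 1.49 CPM. Its call was lost without TKA rat 1 or rat 4, against naive rats alone, with the replicate block, and with the neurofilament covariate. *Timp1*, an inhibitor of matrix metalloproteases, had 41.3 to 76.5 CPM against 31.4 to 48.8 (0.66 ± 0.11, adjusted p = 0.00382). Of the 15 members, 1, *Steap4*, was called without TKA rats 3 and 6, and the list median was then 0.61. *Apod*, a lipid-carrying lipocalin of glia and fibroblasts outside this list, had 856, 512, 483, 501, and 1104 CPM against 197 to 422 CPM (median 342). No control reached a TKA rat, and the log2 fold-change was 1.06 ± 0.16 (adjusted p = 0.00212).

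Chemokines, cytokines, and their receptors rose for 4 of 15 tested members and fell for 0 (median log2 fold-change 0.79). *Ccl2*, the monocyte chemoattractant, had 39.0, 57.2, 43.2, 30.5, and 45.2 CPM in TKA rats 1, 3, 4, 5, and 6. Naive rats had 9.10 to 14.1 CPM (median 11.2) and sham rats 15.3 to 32.5 CPM (median 22.5), so the sham rats lay above every naive rat and the highest of them passed TKA rat 5. The log2 fold-change against the pool was 1.34 ± 0.24 (adjusted p = 0.00711). *Il1r1*, the receptor of interleukin-1, was 11.9, 13.1, 7.69, 10.1, and 12.8 CPM against 3.07 to 7.13 CPM (median 5.38), without overlap (1.09 ± 0.20, adjusted p = 0.00617). *Tnfrsf1a*, a receptor of TNF, was 90.0 to 138 CPM against 58.1 to 90.7 CPM (0.60 ± 0.11, adjusted p = 0.00731). *Il33*, an alarmin, was 88.3, 83.4, 60.9, 84.6, and 189 CPM against 45.0 to 75.3 CPM (median 57.4), with the highest value in rat 6. Its log2 fold-change of 0.81 ± 0.17 (adjusted p = 0.0193) was 0.45 without that rat. *Ackr3*, a chemokine scavenging receptor, had 13.9 to 21.0 CPM against 5.49 to 16.3 CPM and was not called (0.66 ± 0.18, adjusted p = 0.0687). Of these 15 members 0 were called without TKA rats 3 and 6.

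Interferon-induced genes gave 1 call of 9 tested (median log2 fold-change 0.22). It was *Ifitm3*, an antiviral membrane protein, which had 66.7, 78.0, 71.7, 45.5, and 60.6 CPM in TKA rats 1, 3, 4, 5, and 6. Controls had 22.02 to 41.0 CPM (median 31.9), without overlap, and the log2 fold-change was 1.01 ± 0.13 (adjusted p = 0.000577). *Gbp2* and *Ifitm2* passed the adjusted p (0.58 and 0.47 on the log2 scale, adjusted p = 0.0193 and 0.0153) but stayed under 1.5-fold, and *Irf7* had a log2 fold-change of -0.09 (adjusted p = 0.878).

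**Figure D2:**
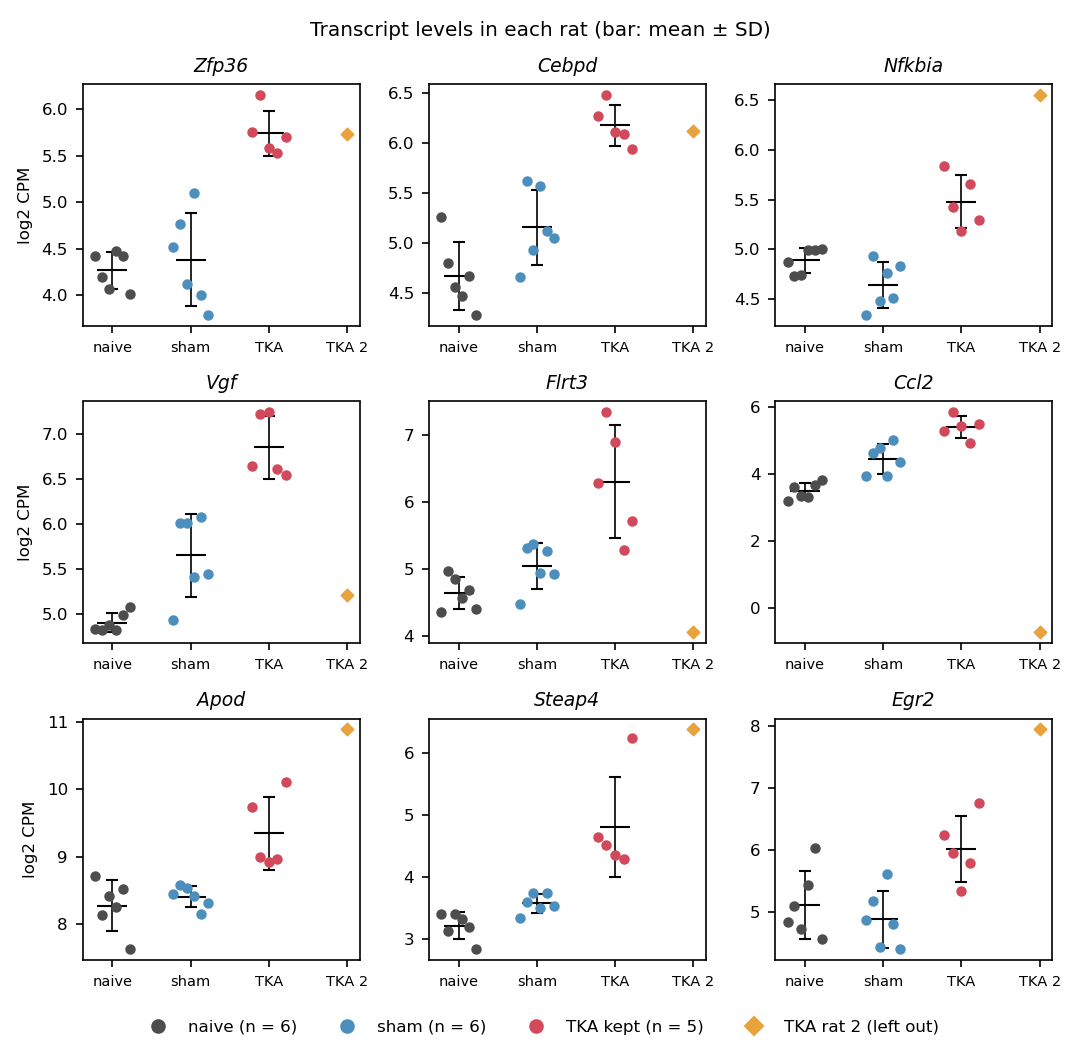
Levels of 9 transcripts as log2 CPM (prior count 2) in 6 naive, 6 sham, and 5 kept TKA rats and in the left-out TKA rat 2. Points are rats, and bars are the mean ± SD of each group. TKA rat 2 lies with the kept TKA rats or above them for *Zfp36*, *Cebpd*, *Nfkbia*, *Apod*, *Steap4*, and *Egr2*, within the controls for *Vgf*, and under all controls for *Flrt3* and *Ccl2*.

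Axon injury and growth genes had the largest median of the response lists, 1.43 on the log2 scale, with 8 of 10 tested members called higher and 0 lower. Of its 23 members 11 had a name, and *Atf3*, *Sprr1a*, and *Gap43* were not among them. *Jun* and *Bdnf*, described with other lists, were 2 of the 8. *Flrt3*, a membrane protein of growing axons, had 77.8, 161, 119, 39.0, and 52.2 CPM in TKA rats 1, 3, 4, 5, and 6. In controls it had 20.3, 29.5, and 41.4 CPM (lowest, median, and highest), so only rat 5 lay inside them. Its log2 fold-change was 1.61 ± 0.23 (adjusted p = 0.00116). *Gadd45a*, a stress-response protein, had 86.1, 160, 143, 48.2, and 66.0 CPM against 31.0 to 66.9 CPM (median 34.6), so rats 5 and 6 lay within the controls (1.25 ± 0.22, adjusted p = 0.00576). *Sox11*, a transcription factor of axon regrowth, had 14.5, 41.1, 23.7, 12.8, and 8.97 CPM against 0.877 to 12.4 CPM (median 6.41), with rat 6 within the controls (1.64 ± 0.36, adjusted p = 0.0242). *Tubb6*, a β-tubulin, had 32.5, 54.4, 45.6, 35.4, and 46.7 CPM against 18.03 to 33.4 CPM (median 20.4), with rat 1 within the controls (0.97 ± 0.13, adjusted p = 0.00116). *Enc1*, an actin-binding protein of neurons, had 22.9 to 35.2 CPM against 13.4 to 21.4 CPM (0.73 ± 0.12, adjusted p = 0.00348). *Reg3b*, a secreted lectin, was 7.63, 15.8, 3.68, 1.59, and 2.57 CPM against 0.177 to 2.52 CPM and had a log2 fold-change of 2.61 ± 0.53 (adjusted p = 0.0153). Without TKA rats 3 and 6 the list median was 1.25 and 2 members, *Flrt3* and *Tubb6*, were called, and without rat 3 alone 4 were.

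Secreted neuronal factors moved both ways, with 3 of 11 called higher and 1 lower (median log2 fold-change 0.31). *Vgf*, the precursor of peptides released by sensory neurons, had 99.8, 149, 151, 97.4, and 93.0 CPM in TKA rats 1, 3, 4, 5, and 6. Naive rats had 28.1 to 33.8 CPM (median 28.9) and sham rats 30.5 to 67.5 CPM (median 53.9), and every TKA rat lay above every control. The log2 fold-change was 1.52 ± 0.21 (adjusted p = 0.00116; exact permutation p = 0.000323). *Alkal2*, a ligand of the ALK receptor, had 31.2, 50.4, 39.8, 35.1, and 30.4 CPM, against 0.299 to 4.16 CPM in naive rats (median 1.60) and 3.93 to 17.9 CPM in sham rats (median 9.11). All 5 lay above all controls, and the log2 fold-change was 2.69 ± 0.52 (adjusted p = 0.0101). *Bdnf*, the neurotrophin of sensory neurons, had 232 counts over the 5 TKA rats and 48 over the 12 controls. Its levels were 1.84, 3.07, 2.20, 0.311, and 1.96 CPM, with rat 5 within the controls (0 to 0.555 CPM), and the fitted log2 fold-change was 3.36 ± 0.70 (adjusted p = 0.0167). *Inhbb*, a subunit of activin B and inhibin B, fell from 26.5 to 41.4 CPM in controls to 16.1 to 25.9 CPM, without overlap (-0.70 ± 0.13, adjusted p = 0.00841). *Calca*, the precursor of the pain peptide CGRP, had 700, 692, 685, and 657 CPM in TKA rats 1, 3, 4, and 5, above all controls (421 to 629 CPM), and 459 CPM in rat 6. It was not called, with a log2 fold-change of 0.31 ± 0.10 (adjusted p = 0.137).

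2 transcripts almost unread in controls were called higher. *Serpinb2*, an intracellular inhibitor of plasminogen activators, had 294 counts over the 5 TKA rats and 6 over the 12 controls, of which 10 had 0. Its levels were 1.92, 4.14, 4.68, 0.467, and 0.784 CPM against at most 0.183 CPM, without overlap (adjusted p = 0.000577; exact permutation p = 0.000323). The fitted log2 fold-change of 6.44 ± 0.82 depends on the prior count. *Htr2b*, a serotonin receptor, had 1.502, 3.93, 2.01, 1.32, and 0.871 CPM, 0 counts in each of the 6 naive rats, and at most 0.875 CPM in sham rats, where it had 37 counts in all. Its adjusted p was 0.0382 and its fitted log2 fold-change 3.80 ± 0.93. The call of *Htr2b* was kept in 7 of the 17 fits without 1 rat and lost with the replicate block and with neurofilament level as a covariate, and that of *Serpinb2* was kept in all 17. DESeq2 gave no adjusted p for either. For the 6 naive rats together, 3 counts, the limit that a count of 0 allows, are worth 0.0229 CPM. This limit covers counting error only.

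Among ion channels and receptors of sensory neurons, 1 of 19 tested members was called higher (*Htr2b*) and 1 lower. Of the 19, 17 had log2 fold-changes under 0, and the median was -0.42. The member called lower was *Oprd1*, the δ-opioid receptor, with 4.34, 4.18, 1.86, 2.49, and 2.35 CPM in TKA rats 1, 3, 4, 5, and 6 against 3.86 to 7.43 CPM (median 5.78). Its log2 fold-change was -0.91 ± 0.23 (adjusted p = 0.0495), and the call was kept in 4 of 17 fits that left out a rat. *Kcns3*, a potassium channel subunit, *Kcnc1*, another potassium channel, and *Oprl1*, the nociceptin receptor, had log2 fold-changes of -0.54, -0.46, and -0.56. All 3 stayed under 1.5-fold, with adjusted p = 0.00618, 0.0337, and 0.0483. The neuronal markers moved with these transcripts. *Nefl*, *Nefm*, and *Nefh* had log2 fold-changes of -0.35, -0.43, and -0.41 (adjusted p = 0.095, 0.0528, and 0.058), and over the 12 neuronal markers 0 were called and the median was -0.38. When the mean level of the neurofilament transcripts entered the fit as a covariate, the median of the channel list was -0.28, that of the axon injury list 1.55, and 49 transcripts were called in all, 48 higher and 1 lower, 35 of them among the 124. In the same fit the medians of the Schwann cell, endothelial, and chemokine lists were -0.16, 0.07, and 0.37. Calls went from 8 to 2 among glucocorticoid-responsive genes, from 5 to 1 among acute-phase and among matrix genes, and from 4 to 1 among chemokines and receptors. They went from 9 to 6 among early-response factors, from 8 to 6 among axon injury genes, and from 5 to 4 among feedback inhibitors. Secreted neuronal factors went from 3 higher and 1 lower to 1 and 0, and the channel list from 1 and 1 to 0 and 0. Interferon-induced genes went from 1 call to 2. The covariate itself differed between TKA rats and controls, so in this fit neuronal content and surgery cannot be told apart.

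The 28 transcripts called lower included synaptic and neuronal membrane proteins. *Lrfn2*, a synaptic adhesion protein, had 6.76, 7.21, 6.55, 7.35, and 5.44 CPM against 8.87, 12.03, and 16.9 CPM in controls (lowest, median, and highest), without overlap. It fell with a log2 fold-change of -0.92 ± 0.16 (adjusted p = 0.00556; exact permutation p = 0.000323). *Rem2*, a GTPase that restrains calcium channels, had 20.2, 23.1, 12.8, 19.6, and 14.8 CPM against 28.5 to 40.9 CPM in naive rats and 18.9 to 38.2 CPM in sham rats (-0.82 ± 0.18, adjusted p = 0.0217). *Pcdh8*, a protocadherin, had 2.05 to 6.40 CPM against 3.11 to 15.4 CPM (-1.27 ± 0.29, adjusted p = 0.0281). *Disp3*, a Dispatched-like membrane protein, had 5.54 to 11.1 CPM against 8.04 to 19.8 CPM (-0.90 ± 0.21, adjusted p = 0.0325). With the neurofilament covariate, *Lrfn2*, *Rem2*, *Pcdh8*, and *Disp3* had log2 fold-changes of -0.79, -0.62, -1.36, and -0.50. None was called in that fit (adjusted p = 0.182, 0.515, 0.345, and 0.794). None of them was called without TKA rats 3 and 6 either. *Plg*, the precursor of plasmin, had 7 counts over the 5 TKA rats, of which 2 had 0, against 198 over the 12 controls (fitted log2 fold-change -3.57 ± 0.88, adjusted p = 0.0392). Naive rats held 125 of the 198 counts and sham rats 73, of which sham rat 5 held 42. The groups overlapped, with 0.174 CPM in TKA rat 6 and 0.161 CPM in the lowest sham rat. *Dhrs2*, a dehydrogenase, had 0.167 to 0.414 CPM and *Dlx3*, a homeobox factor, 0.233 to 0.876 CPM, against control medians of 2.37 and 1.71 CPM (log2 fold-changes -2.70 and -2.43, adjusted p = 0.0397 and 0.0327), and the lowest control, at 0 and 0.265 CPM, lay as low as TKA rats for both. *Abcc2*, a transporter, had -0.98 ± 0.25 (adjusted p = 0.0487) and was called in 4 of the 17 fits without 1 rat, *Dhrs2* in 5, *Plg* in 8, and *Dlx3* in 10. Of the transcripts with no name, ENSRNOT00000048606 (-0.70 ± 0.13) and ENSRNOT00000091928 (-1.25 ± 0.28) had the lowest adjusted p among those that fell, and ENSRNOT00000073432 (1.30 ± 0.19) and ENSRNOT00000038572 (1.04 ± 0.17) among those that rose.

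Extracellular matrix and protease genes rose for 5 of 25 tested members and fell for 0 (median log2 fold-change 0.56). *Dcn*, the proteoglycan decorin, had 460, 325, 309, 373, and 754 CPM in TKA rats 1, 3, 4, 5, and 6 against 153 to 333 CPM (median 251), so rats 3 and 4 lay within the controls (0.85 ± 0.19, adjusted p = 0.0244). *Col4a1*, a basement membrane collagen, had 575, 484, 513, 401, and 1087 CPM against 285 to 476 CPM (median 368), with rat 5 within the controls, and its log2 fold-change of 0.70 ± 0.16 (adjusted p = 0.0302) was 0.38 without rat 6. *Col8a2*, a short-chain collagen, had 82.1 to 87.5 CPM in 4 TKA rats, 135 CPM in rat 6, and 39.4 to 81.9 CPM in controls (0.69 ± 0.14, adjusted p = 0.0153). *Col6a6*, a collagen VI chain, and *Adamts1*, a secreted protease, rose by 1.04 ± 0.21 and 0.87 ± 0.18 (adjusted p = 0.0153 for both), with 4 and 2 of the 5 TKA rats above all controls. Of the 25 members, 0 were called without TKA rats 3 and 6. *Cldn1*, a tight junction protein, had 51.6, 31.5, 38.7, 26.8, and 40.9 CPM against 10.2 to 22.5 CPM (median 14.7), without overlap (1.26 ± 0.19, adjusted p = 0.00116). It was called without those rats too, at 1.29 (adjusted p = 0.021).

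Markers of other cells in the ganglion moved with these lists. All 17 Schwann cell markers and all 17 macrophage markers had log2 fold-changes above 0, with medians of 0.84 and 0.66, and 8 of 9 endothelial markers did, with a median of 0.62. Only *Egr2* of these was called, with 75.8, 61.8, 40.4, 55.2, and 108 CPM in TKA rats 1, 3, 4, 5, and 6 against 21.05 to 65.1 CPM (median 28.9), so rats 1 and 6 lay above all controls. *C1qc*, a complement subunit of macrophages, had 21.4, 22.9, 16.9, 18.7, and 20.9 CPM against 5.58 to 18.2 CPM (0.69 ± 0.22, adjusted p = 0.118). *Gfap*, the filament of reactive satellite glia, had a log2 fold-change of 1.55 (adjusted p = 0.0531). None of the 4 satellite glia, 3 neutrophil, and 2 red blood cell markers was called, with medians of -0.02, -0.04, and 0.58. Without TKA rats 3 and 6 the medians were 0.23 for Schwann cells, 0.50 for macrophages, and 0.18 for endothelium, and with all 6 TKA rats they were 1.46, 1.02, and 1.12, with 13, 3, and 4 members called higher. The part of cell composition in the results of the response lists was not tested.

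**Figure D3:**
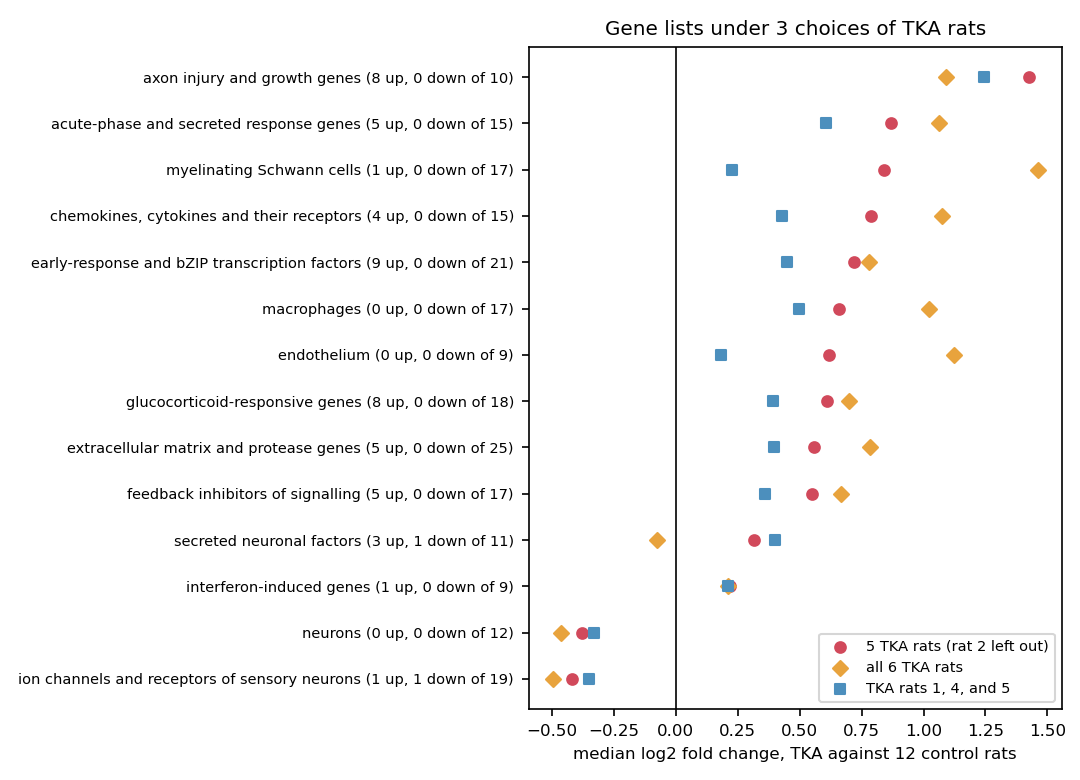
Median log2 fold-change of each list, TKA rats against the 12 controls, with the 5 kept TKA rats (circles), all 6 TKA rats (diamonds), and TKA rats 1, 4, and 5 (squares); the numbers beside each list are calls with the 5 kept rats. The Schwann cell list spans 0.23 to 1.46, whereas the list of interferon-induced genes spans 0.21 to 0.22.

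TKA rat 2, the library left out, entered none of these calls, so its position was described for the 124 called transcripts. It lay above the control mean for 72 of the 96 called higher (75.0%), against 49.1% of all tested transcripts. It lay below that mean for 23 of the 28 called lower (82.1%). It was above all 12 controls for 57 of the 96 (59.4%) and below all of them for 14 (14.6%). For the 28 called lower it was below all 12 for 21 (75.0%) and above all 12 for 3 (10.7%). All tested transcripts gave 27.4% above all 12 and 29.8% below. *Zfp36* (53.3 CPM), *Cebpd* (69.6 CPM), *Ifitm3* (60.1 CPM), and *Maff* (12.3 CPM) lay within the range of the 5 kept TKA rats. *Apod* (1898 CPM), *Egr2* (246 CPM), *Lrg1* (87.3 CPM), *Il33* (292 CPM), *Col4a1* (1657 CPM), and *Mt2A* (58.5 CPM) lay above all 5. The transcripts under all controls included *Alkal2* (0 counts, where 3 counts are worth 0.156 CPM), *Ccl2* (0.521 CPM), *Flrt3* (16.5 CPM), *Shisa7* (5.99 CPM), *Egr1* (12.1 CPM), and *Jun* (132 CPM). *Vgf* (37.1 CPM), *Fos* (7.24 CPM), *Sox11* (1.67 CPM), and *Gadd45a* (35.4 CPM) lay within the controls, and *Bdnf* and *Serpinb2* had 0 counts. *Calca*, which is neuronal, was 70.4 CPM in this rat against 421 CPM in the lowest control. Whether its low neuronal markers account for these values was not tested.

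**Figure D4:**
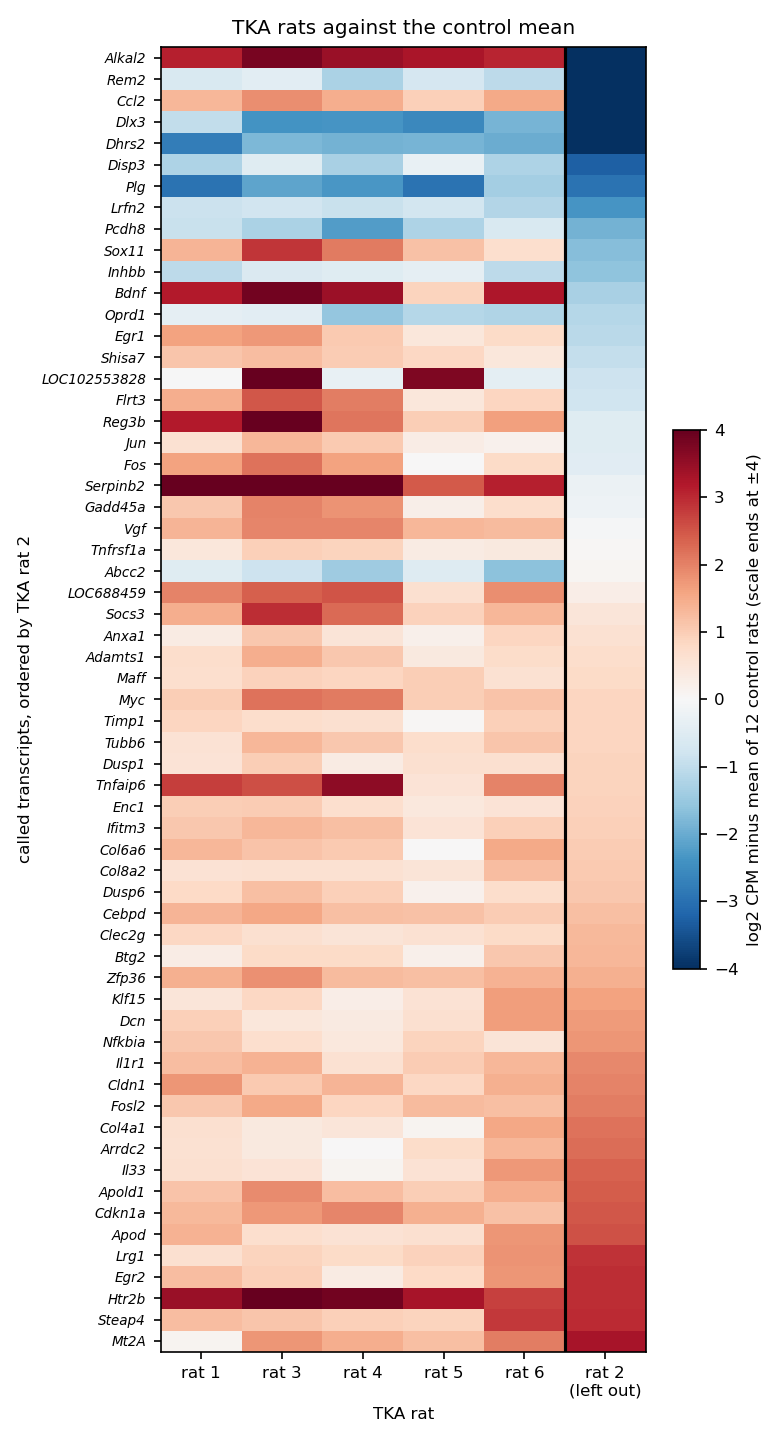
Log2 CPM of each TKA rat minus the mean of the 12 control rats (color, scale ends at ±4) for the named transcripts called in the 5 kept rats, muscle transcripts and 1 other left out, ordered by the value of TKA rat 2. Rows at the top such as *Alkal2* and *Ccl2* are higher in the 5 kept rats and lower in rat 2, and rows at the bottom such as *Steap4* and *Mt2A* are highest in rats 6 and 2.

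The kept TKA rats differed among themselves. Of the 96 transcripts called higher, the highest kept rat was rat 3 for 43, rat 6 for 33, rat 4 for 10, rat 1 for 6, and rat 5 for 4. As shares these are 44.8%, 34.4%, 10.4%, 6.25%, and 4.17%, against 19.1%, 28.2%, 17.8%, 15.6%, and 19.2% of all tested transcripts. The lowest was rat 5 for 49 (51.0%), and the matching share over all tested transcripts was not computed. *LOC102553828*, an uncharacterized locus, was called with 5.28 and 4.51 CPM in TKA rats 3 and 5, but had 0.174 to 0.250 CPM in the other 3 and 0 to 0.555 CPM in controls (exact permutation p = 0.106). The 19 transcripts called from TKA rats 1, 4, and 5 alone were all among the 124. They held 17 that rose, among them *Zfp36*, *Cebpd*, *Ifitm3*, *Vgf*, *Flrt3*, *Steap4*, *Nfkbia*, *Apod*, *Egr1*, *Socs3*, *Tubb6*, *Shisa7*, a neuronal membrane protein, and *Clec2g*, a C-type lectin. The 2 that fell were *Slitrk3*, an adhesion protein of synapses, and *Mab21l2*.

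The pool joins 2 kinds of control, so each was also compared alone. Against the 6 naive rats 113 of 15441 transcripts were called (0.732%), 92 higher and 21 lower. Against the 6 sham rats 0 of 15586 (0%) were called with edgeR, where 1194 had an unadjusted p under 0.05 and the lowest adjusted p was 0.0864. DESeq2 called 89 and limma voom 2 in the same 11 rats, so the count against sham rats alone depended on the tool. Sham rats against naive rats gave 0 calls with edgeR and 625 at an unadjusted p under 0.05. The other tools were not run on that comparison, for which the study, using DESeq2, reported *Ccl2* as its only upregulated transcript. These comparisons share rats, and their values are therefore given side by side. For *Alkal2* the log2 fold-change was 4.39 against naive and 1.92 against sham rats, for *Vgf* 1.97 and 1.16, and for *Ccl2* 1.92 and 0.92. For *Zfp36* it was 1.48 and 1.30, for *Cebpd* 1.48 and 0.98, for *Apod* 1.11 and 1.001, and for *Nfkbia* 0.60 and 0.83. Medians over the 96 called higher were 1.11 against naive and 0.94 against sham rats. The first 3 named genes thus had sham values above naive values (2.45, 0.80, and 0.997 on the log2 scale), while *Nfkbia* had -0.24. The sham mean lay above the naive mean for 80 of the 96 called higher (83.3%), against 49.2% of all tested transcripts. Their median log2 fold-change of sham against naive rats was 0.24. Of the 28 called lower, 16 (57.1%) had a sham mean below the naive mean.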

How the data were processed

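RNA-seq was analysed in 18 rats. Per the labels and the study's methods, the authors mapped 150 bp paired-end reads onto rn6 (HISAT2), counted them (featureCounts), and deposited raw read counts per transcript, without normalization. Versions, annotation release, and strand setting are not given in the sources used here, and reads shared by isoforms or overlapping genes are uncertain. Of 41078 transcripts 26197 had a count. Names came from the tables of the study (3837 transcripts), which are shortened and list the top of ranked results of the same rats, so 20.0% of tested and 91.1% of called transcripts had a symbol. Where a symbol had several transcripts, the one that the study lists, otherwise that with the highest mean count, was used.

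Counts were tested with edgeR 4.0.16 in R 4.3.3 (filterByExpr, TMM, quasi-likelihood F test, Benjamini-Hochberg), called at adjusted p under 0.05 and 1.5-fold or more. SE was taken as the absolute log2 fold-change over the root of F. Levels are CPM with TMM factors over 18 rats, and log2 CPM used a prior count of 2. Exact permutation tests were two-sided over all 6188 choices of 5 of 17 rats and were not adjusted. They covered named transcripts, most of them named because they were called in the same rats, so small p values were likely. No label says more of replicates than separate rats, and no library was a duplicate (153 pairs, lowest chi-square per degree of freedom 13.3). Counting error only is covered by the limits of 3 counts. The code was tested on simulated data.

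The rats, lists, and named transcripts were chosen with earlier results of these data known. Named were the 15 lowest adjusted p, the 10 largest rises and 10 largest falls among called transcripts with a symbol, called list members, and 18 genes of interest. The uncalled list members, *Slitrk3*, and *Mab21l2* named in the text were chosen after their values were seen. Alternatives were DESeq2 1.42.0, limma 3.58.1 voom with quality weights, RLE scaling, other count filters, a robust fit, other rats or controls, sex, and the rat number. A neurofilament covariate, leaving out TKA rats 3 and 6, rat 4 as male, and the other tools against sham rats were added after the data were seen. Promoters came from RefSeq (GRCr8), and transcripts have no coordinates because the files use rn6. Some members counted in the lists are not reported here by name.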

Additional observations from a re-analysis of the deposited data

Results flagged for a closer look

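Among named transcripts, 215 groups of 5 or 6 rats were checked for a single value far from the rest, and 16 (7.44%) were found, where chance gives about 1 in 20. Of the 16, 4 were in TKA rat 6. There *Steap4* (6.23 log2 CPM), *Lrg1* (5.37), and *Col8a2* (7.08) stood above the other kept TKA rats and *Calca* (8.84) below them. In TKA rat 5 *Bdnf* was low (-1.33), and in TKA rat 1 *Dhrs2* was low (-1.98). In naive rats, *Serpinb2* (-1.89) and *Gadd45a* (5.62) were high and *Cdkn1a* (0.30) low in rat 4, *Dhrs2* (-3.52) and *Sox11* (-0.052) were low in rat 6, and *Dlx3* (-1.50) was low in rat 3. In sham rats, *Ifitm3* (4.47) was low and *Tnnc1* (3.48) high in rat 1, *Serpinb2* (-2.52) was high in rat 3, and *Plg* (0.90) was high in rat 5. The values of *Serpinb2* rest on 6 counts over the 12 controls. In TKA rat 2, outside the comparison, *Acta1* reached 5408 CPM of all counts, above the 395 CPM of the highest control. No cause was tested for any of these.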

How the results depend on the processing

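The 124 calls became 222 with DESeq2, 359 with all 6 TKA rats, 0 against sham rats alone, 75 with a replicate block, 284 without a fold-change threshold, 49 with the neurofilament covariate, and 19 without TKA rats 3 and 6. Leaving out each replicate in turn gave 64 to 169, the lowest without TKA rat 6. With voom (133), RLE (124), no filter (121), a mean of 50 counts (143), the robust fit (128), naive and sham rats as separate groups (133), naive controls alone (113), and sex as labelled (130) or with rat 4 as male (144), counts stayed within 1.5 times. Of the 124 calls, DESeq2 shared 118, voom 91, and all 6 TKA rats 97. The cause of these differences was not tested, except that fewer rats entered some fits. The muscle transcripts *Acta1*, *Tnnc1*, *Tpm3*, and *Myh8* were not followed one by one through the alternatives. The median log2 fold-change of the 15 skeletal muscle markers was 2.05 in the main fit and -0.27 without TKA rats 3 and 6. Directions of the other named transcripts held under every alternative in which they could be fitted, except that of *Nefl*. *Nefl* was 0.018 with the neurofilament covariate, itself computed from it. Against sham rats alone, 59 named calls were lost, muscle transcripts not counted.

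Rats of different groups share only a number. Over 16 pairs of same-numbered rats, deviations from the group mean correlated with a median r of 0.02, against -0.01 for other pairs, and 4 of 17 rats correlated best with their own number. The replicate block shared 66 calls with the 124 and lost 19 of the named ones, muscle transcripts not counted. TKA rat 2 lay on the called side of the control mean for 76.6% of the 124, for 74.2% without TMM scaling, and for 81.5% of the DESeq2 calls. Read depth limits *Serpinb2*, *Htr2b*, *Bdnf*, and *Plg*, which had few counts in a group.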
